A study of Mus musculus with 14 samples.

Results

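The comparison described here set the 3 control libraries of a Cep120 mouse line against the 3 control libraries of a Pkd1 mouse line, 6 of the 14 libraries in all. Each library held RNA from GFP-positive ureteric bud cells, sorted by flow cytometry from embryonic kidneys at day 13.5 of gestation, and was sequenced as unstranded whole-transcriptome cDNA. GFP came from Hoxb7-Cre, a transgene that marks the ureteric bud and its descendants and deletes floxed alleles there. The other 8 libraries carried a deletion, 5 of them labelled Cep120 KO and 3 labelled Pkd1 KO, and they served only as a second look at genes found between the controls. Titles mark all 6 controls as "het" and the genotype label gives WT, so the alleles that the controls carried are not settled by the labels. Strain, sex, litter and the number of embryos in a library are not given. Nothing in the labels says that replicates came from separate embryos or litters, and p-values measure only the spread between these libraries, which within a group differed beyond sampling noise (chi-square per degree of freedom 23.3 to 47.4 over genes). Mouse line, strain, litter, sorting day and library preparation cannot be told apart in this design.

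The ureteric bud is an epithelial tube that grows out of the nephric duct and branches inside the kidney. Its tips hold progenitors that respond to GDNF through the receptor RET, and its trunk matures into collecting duct and ureter. Around it lie nephron progenitors, stroma, vessels and resident macrophages, which sorting for GFP is meant to remove. The mouse genome also holds many processed pseudogenes, near-identical copies of highly expressed genes inserted elsewhere, whose number and sequence vary between inbred strains. The 139 genes that passed the test are described by gene role, by cell type marker lists, by sequence copies and by their level in the KO libraries.

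All 6 controls held abundant transcripts of the ureteric lineage. On the per-length TPM scale the mean level of Calb1, a calcium-binding protein of the ureteric bud, was 424 in Cep120-line controls and 523 in Pkd1-line controls, and that of Gata3, a ureteric transcription factor, was 108 and 171. Six2, a defining gene of nephron progenitors, stood at 0.361 and 0.506 TPM, and the glial gene Sox10 had no read. Total estimated counts ranged from 18200456 to 27475859 in the Cep120 line and from 22061652 to 23181179 in the Pkd1 line. Mitochondrial transcripts took 3.95 to 5.69% and 3.36 to 4.94% of counts. In the log2 difference between the longest and the shortest decile of genes, each library against the mean of the 6, the Cep120-line controls lay between -0.25 and -0.15 and the Pkd1-line controls between 0.11 and 0.39. The first principal component, with 32.0% of the variance, separated the lines, while Pearson correlations of log2 CPM, the depth-scaled count, were 0.957 to 0.974 within and 0.952 to 0.958 between them. Xist, made from an inactive X chromosome, was at 34.2, 20.2 and 0 CPM in the Cep120 line and 51.6, 27.5 and 0.496 CPM in the Pkd1 line, and 4 Y-linked genes had reads in all 6 libraries. None of these 5 sex-linked genes was called. Of 6 tested genes on chromosome Y 1 was called, the lincRNA Gm47283, at 3.82, 1.68 and 1.41 CPM in the Cep120 line and 17.3, 29.97 and 210.4 CPM in the Pkd1 line.

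The targeted genes themselves did not differ detectably. Cep120, a centriole elongation protein, was at 10.6, 6.41 and 9.45 CPM in Cep120-line controls and 9.81, 8.46 and 13.6 CPM in Pkd1-line controls. Its log2 fold change, here and throughout Cep120-line minus Pkd1-line, was -0.29 ± 0.263 (SE; edgeR quasi-likelihood test, adjusted p = 0.631). Pkd1, which encodes polycystin-1, was at 3.35, 4.27 and 5.89 CPM against 4.6, 3.34 and 3.84 CPM, a log2 fold change of 0.18 ± 0.315 (edgeR adjusted p = 0.832).

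Of 14992 genes tested, 139 (0.927%) differed between the control groups in edgeR's quasi-likelihood test at a Benjamini-Hochberg adjusted p under 0.05. In the Cep120 line 89 (0.594%) were higher and 50 (0.334%) were lower, and 86 (0.574%) differed at least 2-fold. The higher genes had the larger changes, with a median log2 fold change of 1.98 against -0.88 for the lower genes, and 67 of the 89 passed 2-fold against 19 of the 50. They also lay at lower levels, with a median of mean CPM of 16.4 against 48.6. A line mean under 1 CPM was found for 24 of the 89 and 4 of the 50. All 139 had control libraries that did not overlap between the lines, which held for 3437 (22.9%) of the genes tested. On the deposited log2 values tested with limma-trend, where the median of all genes moved to -0.15 from -0.03, 65 were higher and 95 lower. The count fell to 64 without Cep120-line library 1, 69 without library 2, 36 without Pkd1-line library 1, 45 without library 2 and 64 without library 3. All 139 kept their direction in each of the 16 alternatives that tested them, and 14 were called in all of these.

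**Figure D1:**
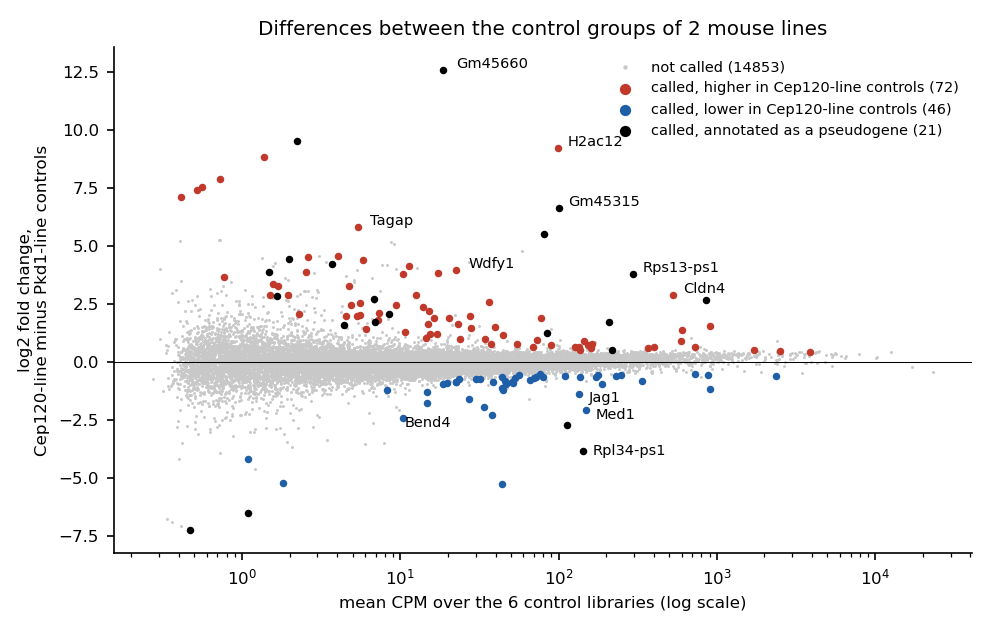
Log2 fold change between the control groups (vertical axis) against the mean CPM over the 6 controls (horizontal axis, log scale), with 1 point per gene tested. The 139 called genes comprise 72 higher (red) and 46 lower (blue) genes and 21 annotated as pseudogenes (black), and the changes of at least 2-fold lie mostly above 0. Genes without a read in 1 group have a fitted change that depends on the prior count.

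Among protein-coding genes higher in the Cep120 line, Cldn4 was the most abundant of those that differed at least 2-fold, apart from Eno1b and Rpl34, which share sequence with copies. Cldn4, a claudin of epithelial tight junctions, was at 877, 851 and 1067 CPM in Cep120-line controls and at 149, 116 and 118 CPM in Pkd1-line controls, so that the lowest of the first group was far above the highest of the second. Its log2 fold change was 2.85 ± 0.136 (edgeR adjusted p = 2.85e-06). Cldn7, another claudin of the same list, was at 463, 386 and 539.6 CPM against 390.3, 454 and 399.7 CPM, and its groups overlapped. Wdfy1, an endosomal protein with a FYVE domain, was at 52.3, 39.5 and 35.7 CPM against 3.43, 1.83 and 2.84 CPM, a log2 fold change of 3.95 ± 0.25 (edgeR adjusted p = 2.31e-05). It was the only called gene of 17 tested (5.88%, beside 0.927% of all genes) from a list of genes known to vary between inbred strains, and with Med1 it was among the 14 called in all alternatives that tested them.

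Fn3krp, a kinase that removes sugar adducts from proteins, was at 64, 56.3 and 66.5 CPM against 11.7, 9.06 and 10.2 CPM (log2 fold change 2.57 ± 0.149, edgeR adjusted p = 1.15e-05). Zer1, a substrate receptor of a cullin ubiquitin ligase, was at 30.5, 24.4 and 20.01 CPM against 5.63, 4.3 and 6.23 CPM, a log2 fold change of 2.19 ± 0.221. Neither gene's groups came close to overlapping. Rbm45, an RNA-binding protein, was at 31.4, 23 and 15.4 CPM against 3.33, 3.57 and 6.36 CPM, with a log2 fold change of 2.37 ± 0.32. Traf3ip1, a subunit of the intraflagellar transport complex, was at 23, 9.44 and 15.2 CPM against 1.92, 3.71 and 3.02 CPM, with a log2 fold change of 2.43 ± 0.357. Asb1, an ankyrin repeat protein whose gene lies next to Traf3ip1 on chromosome 1, was also higher, by 2.10 ± 0.388. Tagap, a GTPase-activating protein known from T cells, went from 0.282, 0.137 and 0.135 CPM in the Pkd1 line to 8.34, 9.69 and 13.8 CPM in the Cep120 line. Its near-identical neighbour Tagap1 was at 39.4, 35.6 and 28.1 CPM in the Cep120 line and 42.6, 34.9 and 33.6 CPM in the Pkd1 line, and the sum of the pair overlapped between the lines at 41.9 to 47.7 CPM against 33.8 to 42.9 CPM. Among these genes, Cldn4, Fn3krp and Zer1 lost their call only with all 14 libraries in the fit, which adds the spread of the KO libraries (edgeR adjusted p = 0.611, 0.0634 and 0.0552). Traf3ip1 also lost it without Pkd1-line library 1 or 3, and Rbm45 without Pkd1-line library 1 or 2 (highest adjusted p over all alternatives 0.362 and 0.0802).

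Smaller increases were spread over genes of different roles. Depdc1b, a DEP domain protein of mitotic cells, was at 25.4, 31.3 and 39.5 CPM against 9.67, 9.06 and 7.4 CPM (log2 fold change 1.86 ± 0.202). Chaf1b, a subunit of the chromatin assembly factor that works at replication forks, was at 154, 153 and 161 CPM against 93.3, 93.2 and 109 CPM (0.64 ± 0.107). The lists of mitosis and DNA replication genes, with 25 tested members each, had no called member (7 and 1 at an unadjusted p under 0.05, a share of 16.3% over all genes, and 2 and 0 called by DESeq2), and their median log2 fold changes were -0.12 and 0.03 beside -0.03 over all genes. Serinc3, a multipass membrane protein, was higher by 1.49 ± 0.163, Lmtk2, a membrane-anchored kinase, by 1.90 ± 0.206 and Dhrs3, a retinaldehyde reductase, by 0.88 ± 0.105. The mitochondrial ADP/ATP carriers Slc25a4 and Slc25a5 were higher by 0.52 ± 0.0795 and 0.40 ± 0.068, the second being the smallest change among the 89. Depdc1b, Serinc3, Lmtk2 and Dhrs3 were called in 15 of 16 alternatives, Chaf1b and Slc25a4 in 10 and Slc25a5 in 8.

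Among the genes lower in the Cep120 line, Med1 and Bend4 changed most of the protein-coding genes above 5 CPM. Med1, a subunit of the Mediator complex that links nuclear receptors to RNA polymerase, was at 64.3, 75.5 and 32.7 CPM in Cep120-line controls and at 232, 233 and 256 CPM in Pkd1-line controls. Its log2 fold change was -2.08 ± 0.243 (edgeR adjusted p = 0.00293). Bend4, a BEN domain protein, was at 9.34, 20.3 and 8.65 CPM against 71.3, 56 and 62.6 CPM, and fell by 2.31 ± 0.29 on the log2 scale (edgeR adjusted p = 0.00466). In both genes the highest Cep120-line library lay well under the lowest Pkd1-line library. Zbtb45, a zinc finger protein, was at 5.81, 5.83 and 8.47 CPM against 23.6, 23.1 and 21.9 CPM, a log2 fold change of -1.79 ± 0.2.

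A ligand of Notch signalling and its DNA-binding effector were both lower. Jag1, a Notch ligand, was at 88.5, 52.6 and 86.4 CPM against 186, 171 and 227 CPM, a log2 fold change of -1.38 ± 0.191 (edgeR adjusted p = 0.0082). Rbpj, the DNA-binding partner of activated Notch, was at 32.5, 36.4 and 39 CPM against 68.6, 67.9 and 59.7 CPM, a log2 fold change of -0.88 ± 0.124 (edgeR adjusted p = 0.00952). Its pseudogene record Rbpj-ps3 was higher by 1.71, and with both records summed the log2 difference was -0.55 and the groups stayed apart. No list of Notch genes was tested, so the pair stands only for itself. The calls of Med1 and Zbtb45 held without each control library in turn, that of Zbtb45 ending only with all 14 libraries in the fit, whereas those of Bend4 and Jag1 ended without Pkd1-line library 1 and that of Rbpj without Pkd1-line library 1 or 2 (highest adjusted p over all alternatives 0.351, 0.998 and 0.0802).

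Ssr1, a subunit of the translocon-associated complex of the endoplasmic reticulum, was the most abundant of the lower genes that changed at least 2-fold. It was at 705, 563 and 407 CPM against 1247, 1352 and 1134 CPM, a log2 fold change of -1.18 ± 0.166 (edgeR adjusted p = 0.00952). Peg10, a paternally expressed gene derived from a retrotransposon, was at 7.34, 9.86 and 8.78 CPM against 21.3, 18.7 and 23.1 CPM and changed by -1.29 ± 0.187. It was the only called gene of 13 tested (7.69%, beside 0.927% of all genes) from the imprinted list, and Asb4, which lies within 1 Mb of it on chromosome 6, was lower by 0.62 on the log2 scale. The chromatin reader Zmynd8 changed by -0.92 ± 0.153, the E2 ubiquitin enzyme Ube2s by -1.15 ± 0.191 and the endosomal GTPase Rab4a by -0.98 ± 0.168. The ciliary protein Rpgrip1 changed by -0.98 ± 0.173, the forkhead repressor Foxn3 by -0.96 ± 0.14 and AC159819.1, a gene known only by its clone name, by -1.23 ± 0.241. Ifngr1, a receptor chain for interferon gamma, was at 33.7, 33.6 and 33.5 CPM against 55.2, 64.9 and 55 CPM, and was lower by 0.82 on the log2 scale, while edgeR and DESeq2 called 0 of the 14 tested interferon-stimulated genes, 2 of which had an unadjusted p under 0.05. The call of Ssr1 ended without Pkd1-line library 1 or 2, and that of Peg10 without Pkd1-line library 1 or 3 (highest adjusted p over all alternatives 0.914 and 0.57). Kitl, the ligand of the receptor KIT, was lower by 0.68, and Cbx2, a Polycomb subunit, by 0.94 on that scale. Of 16 alternatives, Foxn3 was called in 13, Ube2s in 12, Ifngr1 in 11, Zmynd8, Rpgrip1 and Asb4 in 10, Kitl and Cbx2 in 9, Rab4a in 8 and AC159819.1 in 6.

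**Figure D2:**
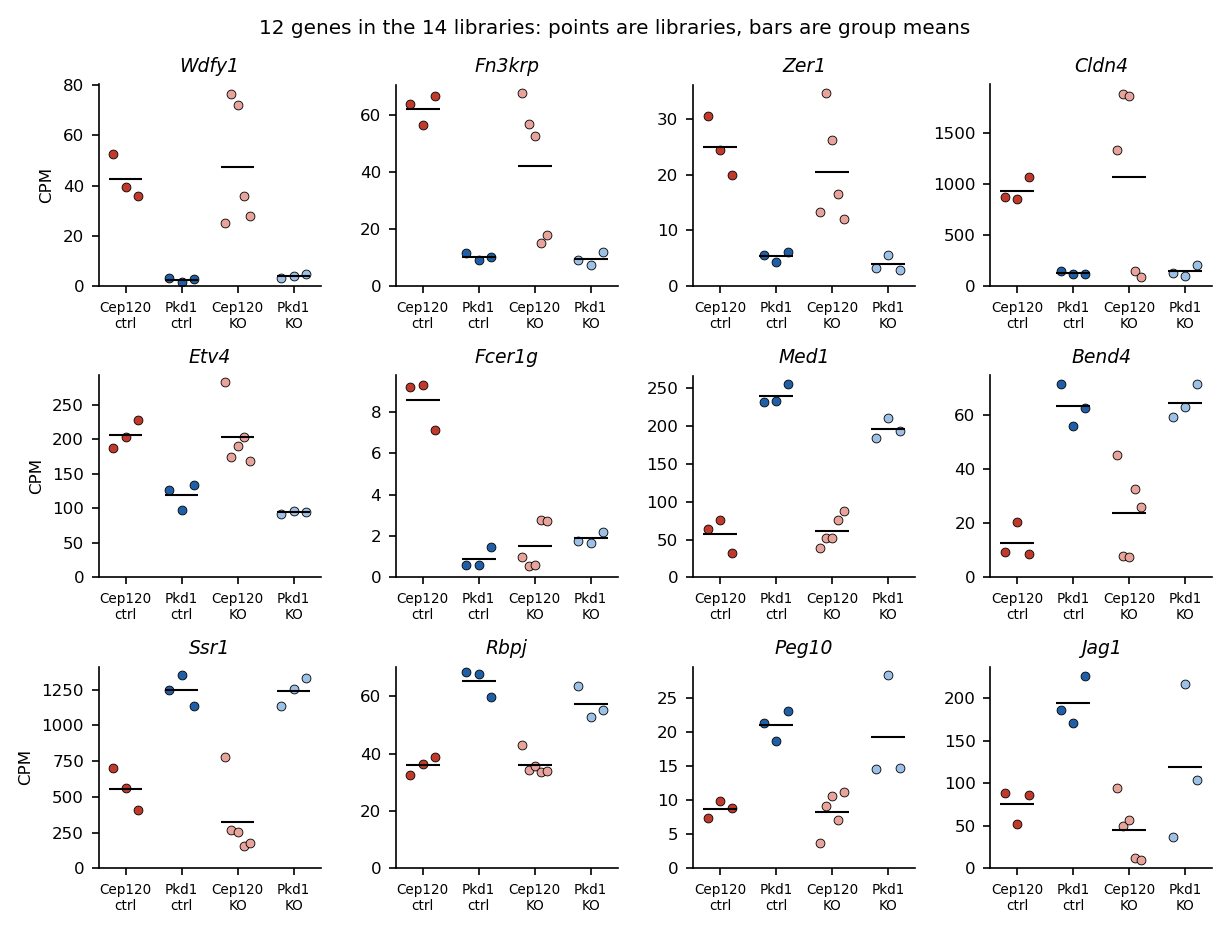
CPM of 12 genes in each of the 14 libraries, with controls in full colour, KO libraries in pale colour and a bar at each group mean. In the controls every point of 1 line lies on 1 side of every point of the other line, and the 5 Cep120 KO libraries follow their line in Wdfy1, Etv4 and Med1 but spread over both levels in Cldn4.

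Over the 3 ureteric lists 3 of 50 tested markers (6%) were called, beside 0.927% of all genes tested. Of 14 tip markers, 1 was called: Etv4, an ETS factor induced by RET, was at 188, 203 and 229 CPM in the Cep120 line and 127, 97.2 and 134 CPM in the Pkd1 line, a log2 fold change of 0.77 ± 0.138 (edgeR adjusted p = 0.0328). Its paralogue Etv5 lay the other way at 222, 252 and 241 CPM against 291, 274 and 308 CPM, with no call. Ret was at 105, 95.2 and 71.8 CPM against 90, 91.5 and 124 CPM. The call of Etv4 did not hold when any 1 of the 6 controls was left out, with an edgeR adjusted p of 0.0614 to 0.164. The tip list as a whole had a median log2 fold change of -0.22, and its summed CPM overlapped between the groups. Etv4 lies between the called genes Rdm1 and Lsm12 on chromosome 11, within 1 Mb of each, and the 3 genes were higher by 0.77, 0.77 and 0.73 on the log2 scale. Called neighbours within 1 Mb did not always share a direction. Zer1 and Lrrc8a on chromosome 2 changed by 2.19 and -0.59, and Cldn4 and Gtf2i on chromosome 5 by 2.85 and -0.64.

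None of 17 tested trunk and collecting duct genes was called by edgeR, 4 had an unadjusted p under 0.05 and DESeq2 called 1. Elf5, an ETS factor of maturing epithelium, stood out with 22.8, 9.03 and 9.64 CPM against 6.2, 5.12 and 5.51 CPM and an edgeR adjusted p of 0.134. Of 19 genes of the ureteric lineage and its epithelium, Cldn4 rose and Epcam fell. Epcam, an epithelial adhesion molecule, was at 129.8, 117 and 156 CPM against 233, 200.0 and 203 CPM, a log2 fold change of -0.67 ± 0.125 (edgeR adjusted p = 0.0372). Its call was lost without any 1 control library other than Cep120-line library 3. Gata3 was at 350.2, 332 and 315 CPM against 455, 421 and 468 CPM with an edgeR adjusted p of 0.059, outside the call. This list had 13 of 19 members below 0 and a median of -0.24. Its summed CPM was nevertheless higher in the Cep120 line, at 5118 to 5287 against 4575 to 4785, with means of 5228 and 4645 CPM. Cldn4 alone had means of 932 and 127 CPM, a wider gap than that of the whole sum. The higher sum thus rested on Cldn4, and the other members together were lower on average. The trunk list's sum was also higher, at 625 to 657 CPM against 524 to 556 CPM, and its median was 0.22. For either sum the exact two-sided permutation test gave p = 0.1, the smallest that 3 against 3 libraries allow, and 0.175 after adjustment over 14 cell type lists.

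Among markers of cells that the gate could have let through, the leukocyte genes Fcer1g and Laptm5 were higher in the Cep120 line. Of 17 macrophage and leukocyte markers 13 passed the low-count filter, which a gene could pass through the higher line alone. Of these 2 were called (15.4%, beside 0.927% of all genes). Without the filter all 17 were tested, 15 had a log2 fold change above 0 and 2 below, and 9 were called higher. That fit called 757 of 27574 genes, 431 of them higher. Fcer1g, the signalling chain of Fc receptors, was at 9.22, 9.32 and 7.12 CPM against 0.61, 0.595 and 1.44 CPM (log2 fold change 3.24 ± 0.397, edgeR adjusted p = 0.00381). Laptm5, a lysosomal membrane protein of haematopoietic cells, was at 8.4, 9.07 and 7.3 CPM against 0.704, 1.37 and 2.44 CPM (2.43 ± 0.411, edgeR adjusted p = 0.026). The call of Fcer1g held without each control library in turn, and that of Laptm5 was lost without Cep120-line library 1 or 2 or Pkd1-line library 1 or 2 (edgeR adjusted p up to 0.138), and both ended with all 14 libraries in the fit (0.111 and 0.759). The complement gene C1qb was at 19.2, 3.24 and 13 CPM against 1.69, 0.32 and 3.75 CPM and was not called. The pan-leukocyte gene Ptprc was at 2.94, 6.16 and 5.03 CPM against 2.16, 3.29 and 7.04 CPM, so its groups overlapped. Of the defining myeloid genes, Itgam was at 0 in 5 of the 6 controls and Spi1 reached at most 0.406 CPM. Summed CPM of the list was 108, 102 and 97.7 against 36.2, 34.0 and 54.3, with the lines apart. The exact permutation p was 0.1 (adjusted p = 0.175), values shared by other lists named below. In the KO libraries the macrophage and leukocyte sums did not show this gap, at 23.7 to 49.7 in the Cep120 line and 37.8 to 53.3 in the Pkd1 line. In bulk RNA, fewer cells of a type and less RNA per cell cannot be told apart.

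Several other called genes are known from leukocytes. They were picked from the called genes after their values were seen, so they add no support to the list above. Rac2, a GTPase of blood cells, was at 7.99, 12 and 3.25 CPM against 0.141, 0 and 0.812 CPM. The immunoglobulin heavy chain constant gene Ighm had 157 reads in the 3 Cep120-line controls and 0 in the 3 Pkd1-line controls. At a floor of 3 reads over the group it was roughly 62.4-fold higher or more. Sash3, Evi2b and Clec4a1 likewise had no read in the Pkd1 line and were roughly 33.3-fold, 25.4-fold and 23.6-fold higher or more. Genes without a Pkd1-line read passed the low-count filter through the Cep120 line alone. The cysteine protease gene Ctss, the receptor gene Cd300a and the cyclooxygenase gene Ptgs1 were higher by 2.88, 3.33 and 2.02 on the log2 scale. Of 15 alternatives that tested them, Ighm was called in 12, Rac2 and Ptgs1 in 8, Cd300a and Evi2b in 6, and Ctss, Sash3 and Clec4a1 in 5. How far leukocytes set these differences was not tested.

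Platelet and megakaryocyte genes varied widely within a line, with sums of 81.6, 526 and 5.71 CPM against 2.86, 23.8 and 4.2 CPM. Of 11 members 6 passed the low-count filter and none of these was called by edgeR or DESeq2, all 6 having an unadjusted p under 0.05. Without the filter 8 of the 11 were called higher, in a fit that called 431 of 27574 genes higher. The median over the members tested was 4.30, and 1.99 without Cep120-line library 2. Pf4, platelet factor, was at 35.3, 300.5 and 4.24 CPM against 0.751, 10.5 and 1.13 CPM, so that the groups overlapped. Erythroid sums reached 514, 7250.1 and 3839.96 CPM against 255, 4752 and 2864 CPM and overlapped as well. Stroma had 11 tested members, 0 at an unadjusted p under 0.05, no call by edgeR or DESeq2 and a median of 0.31, which fell below 0 without Cep120-line library 2, where 1 member stayed above 0, and to -0.13 on the deposited log2 values. Nephron progenitor sums were 73, 69.2 and 62.8 CPM against 39, 52 and 53.9 CPM, carried mainly by Cited1 at 55.5, 35.4 and 41.5 CPM against 20.5, 29.4 and 25 CPM, while Six2 and Eya1 reached at most 1.53 and 1.27 CPM. The median over its 7 tested members was -0.20, opposite in sign to the difference of the sums, and turned to 0.18 with voom, 0.15 with the replicate block, 0.09 on the deposited log2 values and 0.04 without the filter. None was called by edgeR, with 2 at an unadjusted p under 0.05 and 1 called by DESeq2. The list of nascent nephron and podocyte genes had sums of 111 to 156 CPM against 229 to 294 CPM, and Jag1 was its only called member of 8 tested. Without Jag1 the sums overlapped at 67.7, 58.1 and 68.1 CPM against 59.99, 57.1 and 67.2 CPM, so that this 1 gene carried the gap. Neural genes had no call by edgeR or DESeq2 and 3 of 5 at an unadjusted p under 0.05, and Pkd1-line library 2 stood out with 231 CPM of Tubb3 against 27.1 to 38.7 CPM in the other 5 libraries. Endothelial genes had no call by edgeR or DESeq2 among 10 tested, 2 of them at an unadjusted p under 0.05. Over the 14 cell type lists no adjusted p of a sum was under 0.175. Sums were apart at this value, in either direction, for the trunk, ureteric lineage, urothelium, nephron progenitor, nascent nephron, macrophage, neutrophil and neural lists. Urothelium sums were 11.98, 18.8 and 11.9 CPM against 8.64, 7.23 and 11.7 CPM. Neutrophil sums were 6.05, 40.4 and 8.29 CPM against 2.44, 4.03 and 5.78 CPM.

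**Figure D3:**
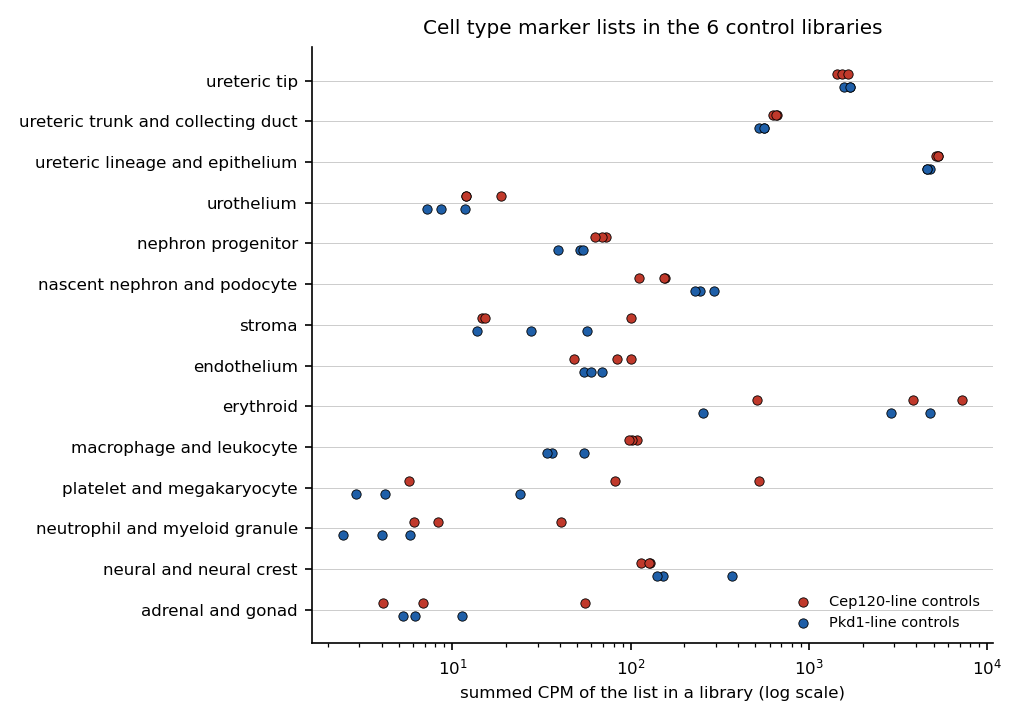
Summed CPM of 14 cell type marker lists (horizontal axis, log scale) in each of the 6 controls, with Cep120-line libraries in red and Pkd1-line libraries in blue. Macrophage and leukocyte sums lie at 97.7 to 108 CPM against 33.95 to 54.3 CPM, and erythroid, platelet and stroma sums vary more within a line than between the lines.

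In large functional lists the median changes were small and, apart from Rpl34, edgeR called none of the members described here. Of 80 tested genes for cytoplasmic ribosomal proteins 78 had a log2 fold change above 0 and 69 had Cep120-line libraries all above Pkd1-line libraries, with a median of 0.32. Over all genes tested, 12.4% had Cep120-line libraries all above and 16.3% had an unadjusted p under 0.05. Only Rpl34 was called in edgeR's quasi-likelihood test (0 to 42 members over the alternatives, the most with DESeq2), and 70 had an unadjusted p under 0.05. The median stayed between 0.21 and 0.38 in all alternatives. Mitochondrially encoded genes had 18 tested members, all above 0, a median of 0.34 and no call, with 6 at an unadjusted p under 0.05 and 3 called by DESeq2. Centriole and centrosome genes lay the other way, with 22 of 26 below 0, a median of -0.24 and no call (53.7% of all genes tested were below 0, 3 members at an unadjusted p under 0.05, 1 called by DESeq2). Cep97, a cap protein of centrioles, was closest at 12.2, 10.5 and 12.3 CPM against 21.6, 16.5 and 18.2 CPM (edgeR adjusted p = 0.109). The lists for cystic kidney disease (median -0.30, 13 tested) and Wnt targets (-0.38, 13 tested) also had 11 members each below 0 and no call, with 5 each at an unadjusted p under 0.05 and 1 and 3 called by DESeq2. Long genes were lower and short genes higher in the Cep120-line libraries by the length values given above, which move in the same direction as these lists, and their part in the medians was not tested. By edgeR no gene was called, and by DESeq2 at most 2 a list, in those for glycolysis, hypoxia, p53 targets, the integrated stress response, cholesterol synthesis, primary cilium, antigen presentation, Hippo targets, immediate early genes or Hox genes, where 1 to 5 members a list had an unadjusted p under 0.05. The called genes Traf3ip1, of intraflagellar transport, and Rpgrip1, a ciliary protein, were not on the primary cilium list.

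Pseudogenes were called more often than protein-coding genes, 21 of 920 tested (2.28%) against 104 of 12637 (0.823%), and 7 of 57 replication-dependent histone genes (12.3%) were called. Of the 139 called genes 34 had a close copy, meaning another annotated transcript of at least 95% identity over at least 50% of the length, with 27 higher and 7 lower. They made up 24.5% of called genes, and in a faster search (megablast) with the same limits 8.58% of all genes tested had such a copy, 84% of pseudogenes and 3.81% of protein-coding genes. The remaining 105 split into 62 higher and 43 lower. How reads that match several copies were divided is not given in the sources used here, so each single record among the 34 is uncertain. The stretches below, of 90 bases each, show how few bases separate such records in 3 families chosen after their values were seen, from GENCODE M21 on mouse build GRCm38. They run 5′ to 3′ on the transcript strand, and capitals mark the bases at which the records printed for that family differ. The Rps13 family comprises the gene at chr7:116331505-116334195 on the minus strand, bases 352 to 441 of its coding sequence, with Rps13-ps1 at chr8:87047689-87048226 on the plus strand and Rps13-ps2 at chr7:88530446-88530898 on the minus strand.

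Rps13: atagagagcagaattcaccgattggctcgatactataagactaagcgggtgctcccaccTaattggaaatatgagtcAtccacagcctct
Rps13-ps1: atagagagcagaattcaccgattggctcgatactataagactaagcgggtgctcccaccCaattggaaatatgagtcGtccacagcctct
Rps13-ps2: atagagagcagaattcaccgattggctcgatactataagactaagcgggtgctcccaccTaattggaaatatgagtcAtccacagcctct

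Rps13 encodes a protein of the small ribosomal subunit. Over 453 aligned bases Rps13-ps1 matched its coding sequence at 99.6% and Rps13-ps2 at 100%. Rps13-ps1 was at 519.5, 582 and 561 CPM in the Cep120 line and 34.6, 42.5 and 44.1 CPM in the Pkd1 line, a log2 fold change of 3.76 ± 0.129 (edgeR adjusted p = 1.96e-07). Rps13-ps2 went the other way, at 65.1, 11.6 and 13.3 CPM against 185, 198 and 202 CPM. Rps13 itself was at 786, 557 and 661 CPM against 621, 704 and 750.2 CPM, and its groups overlapped. The sum over the gene and its 7 pseudogene records was 1264 ± 110 CPM (SD, n = 3) against 928.9 ± 80.3 CPM (SD, n = 3), a log2 difference of 0.44, far smaller than those of the pseudogene records.

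The Rpl34 family holds Rpl34 at chr3:130726831-130730398 on the minus strand, bases 233 to 322 of its coding sequence, Rpl34-ps1 at chr6:71124610-71124963 on the plus strand and Gm10154 at chr4:83505185-83505538 on the minus strand. In it the gene and the pseudogene changed in opposite directions.

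Rpl34: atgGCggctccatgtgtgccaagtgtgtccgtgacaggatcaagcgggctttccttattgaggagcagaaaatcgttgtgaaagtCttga
Rpl34-ps1: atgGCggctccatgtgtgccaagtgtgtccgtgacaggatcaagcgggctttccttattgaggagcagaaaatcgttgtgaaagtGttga
Gm10154: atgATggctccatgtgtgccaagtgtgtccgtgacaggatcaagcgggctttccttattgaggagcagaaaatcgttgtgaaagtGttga

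Rpl34, a protein gene of the large ribosomal subunit, was at 888, 842 and 890.1 CPM against 467, 359 and 169 CPM, a log2 fold change of 1.38 ± 0.273 (edgeR adjusted p = 0.0481). Rpl34-ps1, with 99.4% identity over 353 bases, was at 19.2, 18.2 and 19.4 CPM against 127, 261 and 413 CPM, a log2 fold change of -3.84 ± 0.357 (edgeR adjusted p = 5.41e-04). Within the Pkd1 line the library with the least Rpl34 had the most Rpl34-ps1, and the sums of the 3 records were level there at 596, 621 and 585 CPM. The sum was 892.5 ± 27.8 CPM in the Cep120 line and 601 ± 18.5 CPM in the Pkd1 line (SD, n = 3 each), a log2 difference of 0.57.

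Gm3375 at chr7:3181093-3181888 on the plus strand is a pseudogene record of Psmb5, a catalytic subunit of the proteasome at chr14:54614119-54618022 on the minus strand, shown from base 382 to 471 of the coding sequence.

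Psmb5: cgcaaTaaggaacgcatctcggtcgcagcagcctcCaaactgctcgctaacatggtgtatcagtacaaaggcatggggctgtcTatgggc
Gm3375: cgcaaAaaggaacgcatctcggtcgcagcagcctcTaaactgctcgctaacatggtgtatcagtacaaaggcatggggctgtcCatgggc

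Gm3375 was at 199, 156 and 121 CPM against 2.91, 4.03 and 3.34 CPM, a log2 fold change of 5.51 ± 0.218 (edgeR adjusted p = 5.55e-07). Psmb5 was at 218, 216 and 336 CPM against 337, 362 and 366 CPM. With both summed the lines stood at 415 ± 42.3 CPM and 358.5 ± 16.3 CPM (SD, n = 3 each), a log2 difference of 0.21. Of the proteasome subunit genes, only this pair is described, since Gm3375 had 1 of the smallest adjusted p-values of the comparison.

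The glycolytic enzyme gene Eno1 and its copies Eno1b and Gm4735 gave the same picture at high expression. Eno1b was at 1328, 1040.5 and 1697 CPM against 444, 483 and 463 CPM, and Gm4735 at 1482, 1186 and 1779 CPM against 221, 238 and 231 CPM, while Eno1 was at 3655, 2884 and 2233 CPM against 3853, 4023 and 4183 CPM. The 3 records summed to 5761 ± 679 CPM and 4713 ± 182 CPM (SD, n = 3 each). In the Pkd1 KO libraries this split was not constant within the line: Gm4735 was at 317, 329.8 and 1248 CPM and Eno1 at 4649, 4864 and 3137 CPM, with sums of 5443, 5680.2 and 5552 CPM. Nor was it constant among the Cep120 KO libraries, where Gm4735 was at 168, 803, 691, 154 and 279 CPM in libraries 2, 4, 5, 6 and 7. Gm45315, a record with 98.8% identity to the chromatin protein gene Hmgb1, had the smallest adjusted p of all genes (edgeR adjusted p = 1.28e-08). It was at 190.3, 189 and 216 CPM against 2.16, 2.24 and 1.58 CPM, and the sum with Hmgb1 was 3242 ± 192 CPM against 2758 ± 85.6 CPM.

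Called histone genes belonged to the H2A family. H2ac12 was at 93.5, 122 and 376 CPM against 0.422, 0.0915 and 0.451 CPM, a log2 fold change of 9.22 ± 0.714 (edgeR adjusted p = 1.33e-04). H2ac7 was at 31.3, 29.9 and 36.3 CPM against 2.82, 1.97 and 1.94 CPM, and H2ac10, H2ac13 and Hist1h2an were also higher, by 4.11, 3.77 and 2.88 on the log2 scale. Hist1h2ap was at 203, 271 and 258 CPM against 425, 449 and 419 CPM, and Hist1h2ao was lower too, by 1.22. Summed over 20 replication-dependent H2A genes the lines overlapped, at 713 ± 280 CPM and 659.6 ± 33.2 CPM (SD, n = 3 each). Ahcy, which breaks down S-adenosylhomocysteine, was higher by 1.86, and its sum with the copies Gm4737 and Gm9826 differed by 0.04 on the log2 scale with overlapping groups.

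Most sums over close copies were smaller in difference but still kept the lines apart, as the groups overlapped in 11 of the 34. The median absolute log2 difference was 0.28 for the sums and 2.66 for the single genes. Only 2 sums were at least 2-fold apart. That of H2ac7 and its copies differed by 1.94 on the log2 scale and that of Gm45660 by 1.83, with the lines apart in both. Both depend on the set: the first left out Hist1h2ao and Hist1h2ap. The second left out Rps19, and Rps19, Rps19-ps6 and Gm45660 together differed by 0.45. The 34 genes share families, so their sums repeat, and in some an abundant source gene sets the sum. Gm45660, a copy of Rps19 pseudogenes, had 2094 reads in the Cep120-line controls and 0 in the Pkd1-line controls, roughly 849.5-fold higher or more. With pseudogenes and replication-dependent histone genes left out of the fit, an alternative added after seeing the data, 114 genes were called, 71 higher and 43 lower.

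**Figure D4:**
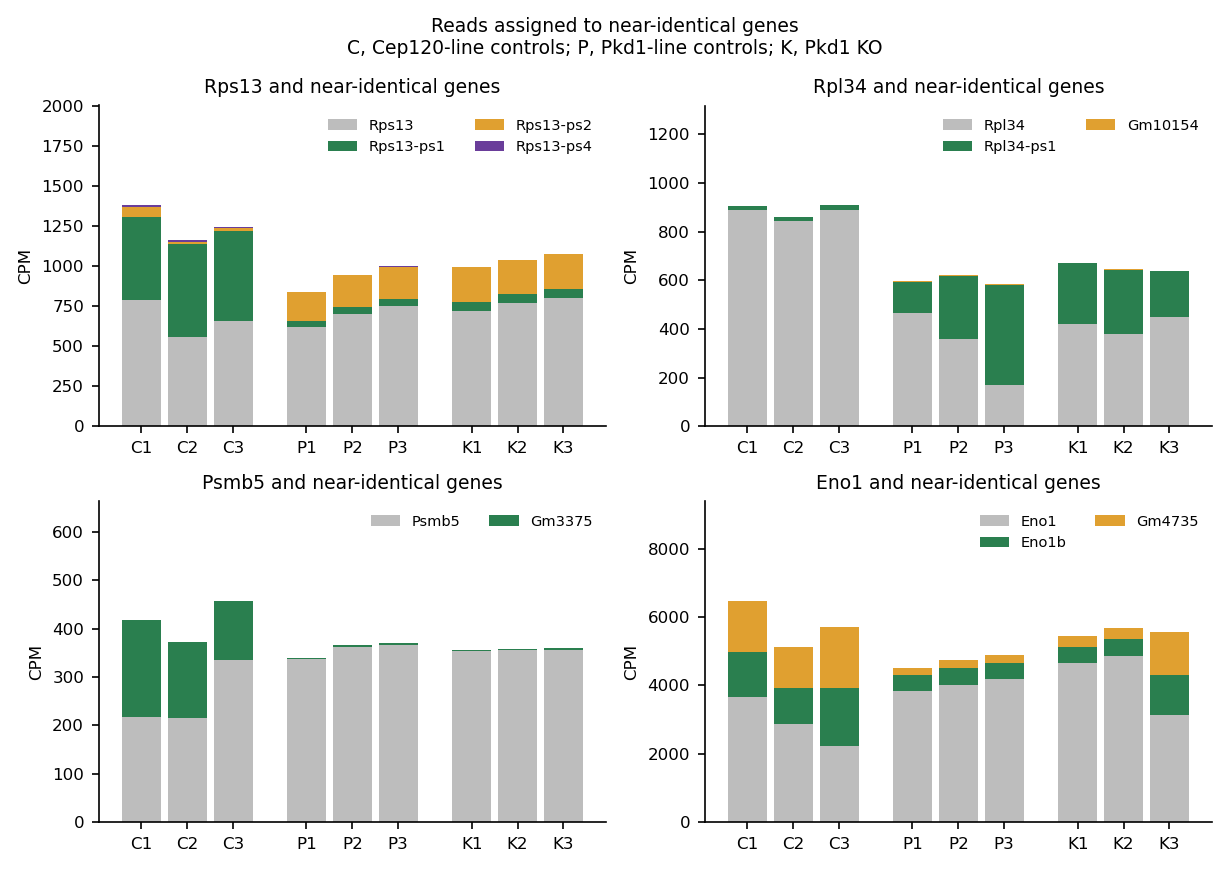
CPM assigned to the main records of 4 families of near-identical genes (4 of the 8 records of the Rps13 family), stacked in each control and Pkd1 KO library. The coloured pseudogene or copy portions change several-fold between the lines while the stack heights change less, from 601 to 892.5 CPM on average in the Rpl34 family, and Pkd1 KO library 3 holds an Eno1 split unlike the other libraries of its line.

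The KO libraries share their line with the controls and share no library with them, so they show whether a difference was present again in that line. Beyond the line they differ in the deletion and in the library traits given below. Cep120 itself was at 7.87 to 21.2 CPM in the libraries labelled Cep120 KO, not below the controls, and Pkd1 at 2.39 to 2.68 CPM in those labelled Pkd1 KO. These counts cover whole genes, and the deleted exons are not given in the labels. The 5 Cep120 KO libraries also differed among themselves: libraries 6 and 7 held 1098 and 939.9 CPM of nephron progenitor markers against 38.1 to 44.2 CPM in the other 3. Libraries 4 and 5 were far more alike than any other pair, with a chi-square per degree of freedom of 5.07 against 38.6 to 378 for the other Cep120 KO pairs, still above sampling noise. The log2 difference between the longest and shortest gene deciles was 0.96 to 1.22 in libraries 4, 5, 6 and 7. It was -0.05 in library 2 and 0.005 to 0.19 in the Pkd1 KO libraries. The 100 top genes took 23.6 to 25.5% of counts in libraries 4, 5, 6 and 7. They took 32.4% in library 2 and 31.8 to 32.6% in the Pkd1 KO libraries. The part of these traits in what follows was not tested.

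For 104 of the 139 called genes (74.8%) the KO libraries differed by line in the direction of the controls on their mean log2 CPM, against 40.6% of all genes tested. For 49 (35.3%) the 5 Cep120 KO and 3 Pkd1 KO libraries did not overlap in that direction, against 4.58% of genes tested. Over controls and KO libraries, all 8 libraries of the Cep120 line lay on 1 side of all 6 of the Pkd1 line for 42 genes (30.2%), as they did for 127 (0.847%) of the genes tested. Since every called gene already separated in the controls, the nearer background is the 3437 genes whose controls separated: 127 (3.7%) separated all 14 libraries, and 186 (5.41%) had KO libraries apart in the same direction. With Cep120 KO library 2 as the only one of its group, 110 genes (79.1%) shared the direction, against 54.6%, and 98 (70.5%) lay outside the 3 Pkd1 KO libraries, against 34.7%. In edgeR's quasi-likelihood test of the KO libraries, which called 11 genes (0.0697%), 9 of the 139 were called, and with library 2 alone, which called 65 (0.413%), 29 were. The interaction of line and deletion called 0 genes (0%) of 16876 tested in edgeR's quasi-likelihood test, with 3436 at an unadjusted p under 0.05. All 14 libraries separated for 33 of the 86 genes of at least 2-fold and for 9 of the other 53.

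Wdfy1 was at 25.3, 76.4, 71.8, 35.8 and 27.9 CPM in Cep120 KO libraries 2, 4, 5, 6 and 7 and at 3.24, 4.14 and 4.7 CPM in the Pkd1 KO libraries. All 8 libraries labelled Cep120 line, controls and KO, thus lay above all 6 of the Pkd1 line. The same held for Tagap, at 7.32 to 17.8 CPM against 0.185 to 0.415 CPM, and for Fn3krp, Zer1, Rbm45, Traf3ip1, Depdc1b and Chaf1b. Med1 stayed low at 39.3, 52.3, 52.5, 75.3 and 87.7 CPM against 184, 211 and 193 CPM. Rbpj stood at 33.7 to 42.9 CPM against 52.8 to 63.5 CPM, Bend4 at 7.55 to 45 CPM against 59.1 to 71.2 CPM, and Ssr1 and Peg10 also separated all 14 libraries. Etv4 was at 169 to 283 CPM against 91.5 to 96.8 CPM, and among the pseudogene records Rps13-ps1, Gm3375 and Rpl34-ps1 separated too.

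Other genes did not carry over. Cldn4 was at 1336, 1882 and 1856 CPM in Cep120 KO libraries 2, 4 and 5 and at 152 and 94.6 CPM in libraries 6 and 7, near the 98.5 to 212 CPM of the Pkd1 KO libraries. The summed ureteric lineage list was also lower in libraries 6 and 7, at 1905 and 2467 CPM against 5547 to 6809 CPM in the other 3, and its part in the level of Cldn4 was not tested. Fcer1g was at 0.533 to 2.76 CPM against 1.67 to 2.21 CPM and Laptm5 at 0.131 to 6.85 CPM against 1.73 to 4.56 CPM, so neither separated by line. Jag1 ranged from 36.5 to 217 CPM within the Pkd1 KO libraries. Fth1, the ferritin heavy chain, and Ubap2, a ubiquitin-binding protein, had KO libraries that separated in the direction opposite to the controls, Fth1 at 828 to 2046 CPM against 2236 to 2495 CPM.

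**Figure D5:**
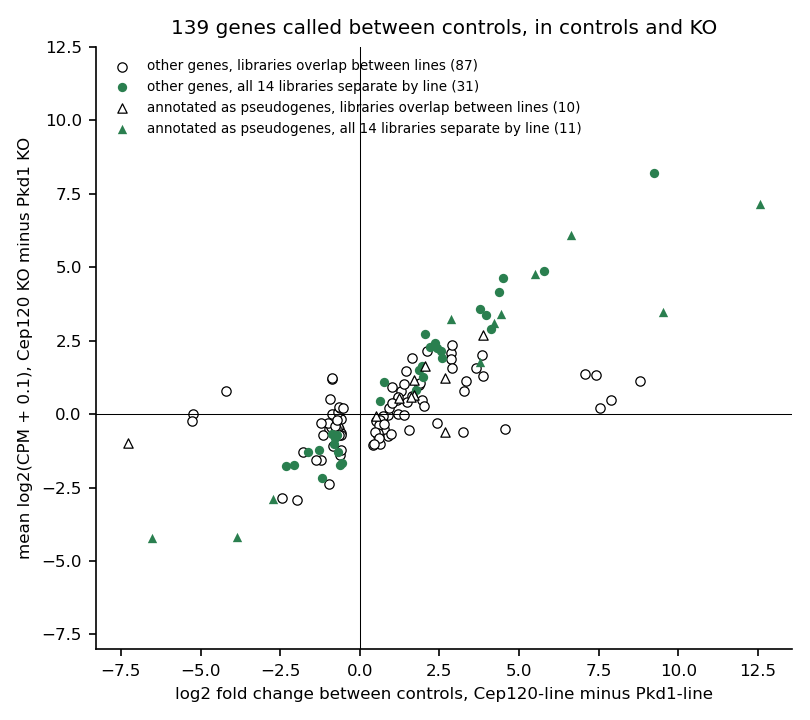
Log2 fold change between the controls (horizontal axis) against the mean log2(CPM + 0.1) difference between Cep120 KO and Pkd1 KO libraries (vertical axis) for the 139 called genes, with triangles for pseudogenes and green filled symbols where all 14 libraries separate by line. The 42 filled points lie in the 2 quadrants of like sign, and they include 11 of the 21 pseudogenes.

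Each autosome held at least 1 called gene, with the most on chromosomes 7 (17 of 1147 tested, 1.48%), 2 (15 of 1156) and 13 (15 of 614, 2.44%, where the H2A cluster lies). Within 10 Mb of Cep120, at chr18:53681723-53744608 on GRCm38, 2 of 72 tested genes (2.78%, beside 0.927% of all genes) were called. These were Sema6a and the Eno1 copy Eno1b, and none of 25 was called within 5 Mb. Within 10 Mb of Pkd1, at chr17:24549834-24596508, 0 of 309 were called, and 3 of 452 (0.664%) within 20 Mb, among them Tagap. Counts this small cannot set either region apart from the share over all genes.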

How the data were processed

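Total RNA-seq of 14 libraries was available as 1 count table and tables of normalized values, with transcript-level tables not used here. The deposited counts are estimated counts per gene, not all whole (88.4 to 91.6% of values were whole), and the labels name DRAGEN and mm9 per the submitters' processing notes, with roles and versions not given in the sources used here. TPM and log2 CPM were deposited by the authors, and how they were made is not given in the sources used here. From the table of 55774 lines, 287 repeated lines were dropped, and counts were rounded, which moved a library total by at most 0.000338%. edgeR 4.0.16 (R 4.3.3) was fitted to the 6 controls as a quasi-likelihood model after filterByExpr (minimum count 10) and TMM scaling, with 4 residual degrees of freedom and Benjamini-Hochberg adjustment at 0.05. Standard errors are the fold change divided by the root of its F value. Printed CPM were scaled over all 14 libraries. TPM was used for levels between genes, and limma 3.58.1 tested the deposited log2 values. DESeq2 1.42.0, voom, other scaling, no filter, a wider fit, a replicate block and leaving out each library were alternatives. On simulated counts of 14992 genes with the depths of the controls, 80.4% of 97 genes changed 4-fold and 46.9% of 98 changed 2-fold were recovered, with 7 false calls. Each gene was simulated at the spread fitted for its level (trended dispersion). Spread around that trend and single deviating libraries were therefore not covered, so these rates may not hold for the real libraries. Coordinates, sequences and copies (blastn 2.17.0) come from GENCODE M21 on GRCm38, not from the build of the counting.

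Genes named were Cep120, Pkd1 and, among called protein-coding genes without control overlap and with a mean of at least 5 CPM, up to 12 per direction by size of change and up to 6 per direction with separate KO libraries. Up to 3 called members (or the member with the smallest p) and the most abundant marker were named per list. Other genes, pseudogenes included, were named after their values were seen. The comparison and the lists were chosen with earlier results of these data known. The labels do not say that replicate numbers pair the samples. Correlations of same-numbered deviations were 0.03, 0.01 and -0.03, which shows no shared pattern, but this check would miss a weak one.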

Additional observations from a re-analysis of the deposited data

Results flagged for a closer look

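Among 32 called genes whose Cep120 KO values were looked at, 3 had 1 library far from the other 4, and in all 3 it was library 2, the highest. H2ac12 was at 198.5 CPM there and at 33.4 to 78.0 CPM in the others, a gap of 0.73 of the whole range. Ssr1 was at 778.4 CPM there and at 154 to 270.3 CPM in the others, a gap of 0.813 of the range. Rbpj was at 42.9 CPM there and at 33.7 to 35.8 CPM in the others, a gap of 0.771 of the range. The critical ratio for 5 libraries is 0.71, and chance passes it in about 1 in 20 groups. For all 3 genes library 2 still lay on the Cep120 line's side of every Pkd1-line library.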

How the results depend on the processing

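All 139 genes kept their direction in every alternative that tested them, and of the values of named genes under the alternatives 1006 kept their side of the threshold, 28 passed it newly, 105 no longer passed it and 0 changed sign. Counts moved more. Without the low-count filter 757 genes were called (401 at least 2-fold, 431 higher, 326 lower), with all 14 libraries in the fit 21 (21 at least 2-fold, 18 higher, 3 lower) and with DESeq2 596 (371 higher, 225 lower). On the deposited log2 values 95 were lower. Leaving out 1 control library at a time gave 36 to 147 calls, with 33 to 83 at least 2-fold, 29 to 83 higher and 7 to 64 lower. The lowest counts came without Pkd1-line library 1 and the highest without Cep120-line library 3. With the replicate block 99 genes were called, 27 of them lower, and 82 were shared with the 139, but the labels do not say that the numbers pair the samples. With Cep120 KO library 2 as the only one of its group, 70.5% of called genes lay outside the Pkd1 KO libraries in place of 35.3%. Within 5 Mb of Cep120 0 called genes were found in place of 2, and within 20 Mb of Pkd1 3 in place of 0. The cause of these shifts was not tested, except that a fit with fewer libraries has fewer residual degrees of freedom. Depth limits genes under 1 CPM: 28 called genes had a line mean there.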
